A study of Mus musculus with 50 samples.

Results

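The 4 h response to forced swimming was compared between DBA/2J and C57BL/6J mice in the hypothalamic paraventricular nucleus, abbreviated PVN. The comparison used 20 of the 50 arrays of the series, the 10 that set stressed against non-stressed DBA/2J mice and the 10 that did the same for C57BL/6J mice, and it addresses whether the transcript response to one stressor differs between the strains. All 22824 non-control clones of the array entered, and each was described by its strain difference, the log2 ratio of stressed over non-stressed in DBA/2J minus the same log2 ratio in C57BL/6J.

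The 4 pools of RNA compared were DBA/2J mice killed 4 h after the swim, non-stressed DBA/2J mice, C57BL/6J mice killed 4 h after the swim, and non-stressed C57BL/6J mice. All were male inbred mice aged 3 to 5 months and housed singly, and the stressor was 5 min in water at 22 to 25 °C. Each pool held tissue punched from 6 animals, and the 10 arrays of a comparison hybridised the same pair of pools, 5 with the stressed pool in Cy5 and 5 with it in Cy3. The arrays were therefore technical replicates. Every p-value below measures the spread of labelling and hybridisation between arrays of the same pools, and not the spread between pools or between mice. In punched tissue, fewer cells of a type and less RNA per cell cannot be told apart.

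Neurons of the PVN release corticotropin-releasing hormone and vasopressin into the portal blood of the pituitary, which starts the release of ACTH and, from the adrenal gland, of corticosterone. Corticosterone acts back on the brain through the glucocorticoid receptor, a ligand-activated transcription factor that restrains the same axis. The peptides are cut from precursors by convertases, stored in large granules and released by the SNARE proteins that fuse vesicles with the cell membrane.

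A clone was called where its strain difference was at least 1.41-fold, 0.5 on the log2 scale, with an adjusted p under 0.05 (limma, Benjamini-Hochberg over all clones). Of the 22824 clones, 535 were called, 2.34%. The response of DBA/2J was higher than that of C57BL/6J in 264 of them (1.16%) and lower in 271 (1.19%). Directions here follow the dyes that the labels give to each pool. The study printed its fold changes the other way round, and also described Gnai2 as higher after stress in DBA/2J in a separate real-time PCR of unpooled RNA. By real-time PCR it further reported App as higher at 8 h, and it described an increase by in situ hybridisation. These separate measurements run in the printed direction, against the one used here. The files do not settle which is right, and with the sign turned every clone given as higher would read as lower. The differences ran from -1.65 for a clone of Vamp2 to 1.62 for a clone of Arfgef1. The smallest called difference was 0.50 in size, and 7 clones passed the p threshold but not the fold. The ranges of the 10 DBA/2J arrays and the 10 C57BL/6J arrays did not overlap in 83 clones (0.364%), 78 of them called.

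**Figure D1:**
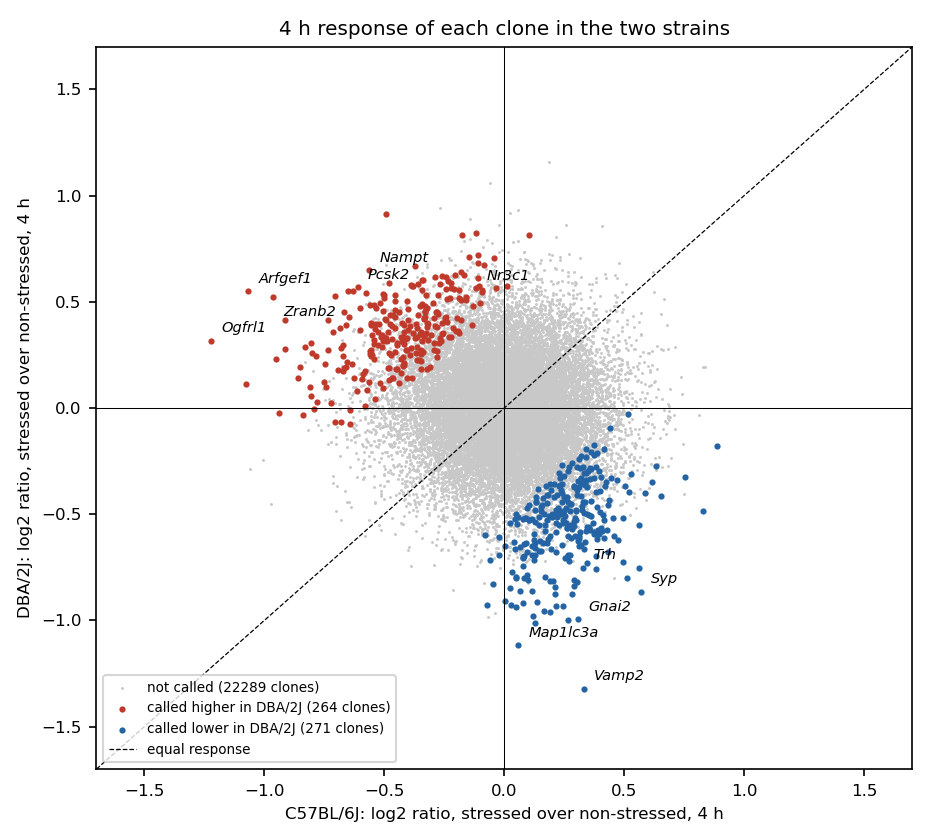
Each point is a clone, with its mean log2 ratio of stressed over non-stressed in DBA/2J on the vertical axis and in C57BL/6J on the horizontal axis (10 arrays each). The 264 clones called higher in DBA/2J (red) lie almost wholly at the upper left and the 271 called lower (blue) at the lower right.

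In most called clones the mean responses of the 2 strains had opposite signs. In some of them 1 response lay near 0, such as Atp6v0a1 in C57BL/6J (0.0015 ± 0.11, SE) and the called Dpysl2 clone in DBA/2J (0.025 ± 0.095). Of the 264 clones called higher, 255 had a mean ratio above 0 in DBA/2J and below 0 in C57BL/6J, and the median response was 0.36 in DBA/2J and -0.42 in C57BL/6J. Of the 271 called lower, all but 6 showed the reverse, with a median of -0.53 in DBA/2J and 0.26 in C57BL/6J. Over all clones the signs were opposite in 53.1%, and a large difference favours opposite signs by construction. The C57BL/6J response was the larger in size in 157 of the 264 higher clones, and the DBA/2J response was the larger in 228 of the 271 lower clones.

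The strength of signal differed between the comparisons. On the DBA/2J arrays 16.9% to 26% of clones had more signal than the 95th percentile of empty spots, against 33.8% to 69.8% on the C57BL/6J arrays. A clone is described here as bright where its mean log2 intensity passed that limit in both comparisons (9.43 on the DBA/2J arrays and 7.52 on the C57BL/6J arrays). This held for 4545 clones, of which 392 (8.62%) were called, 4.11% of the bright clones as higher and 4.51% as lower. The other 143 called clones were dim in at least 1 comparison, and what the unequal signal contributed to the difference was not tested. Of 1170 empty spots 2 were called (0.171%), and none of the 198 other control spots was.

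The same sign of difference was found in both dye orientations for 528 of the 535 called clones, against 50.5% of all clones. The called difference is the mean of the differences in the 2 orientations, so a call favours a shared sign by construction. Over all clones the 2 differences were unrelated, with a correlation across clones of 0.01. With only the 5 arrays per strain that carried the stressed pool in Cy5, no clone passed (2920 had an unadjusted limma p under 0.05), and with only the other 5 per strain 9 clones passed. The calls therefore rest on both orientations together.

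**Figure D2:**
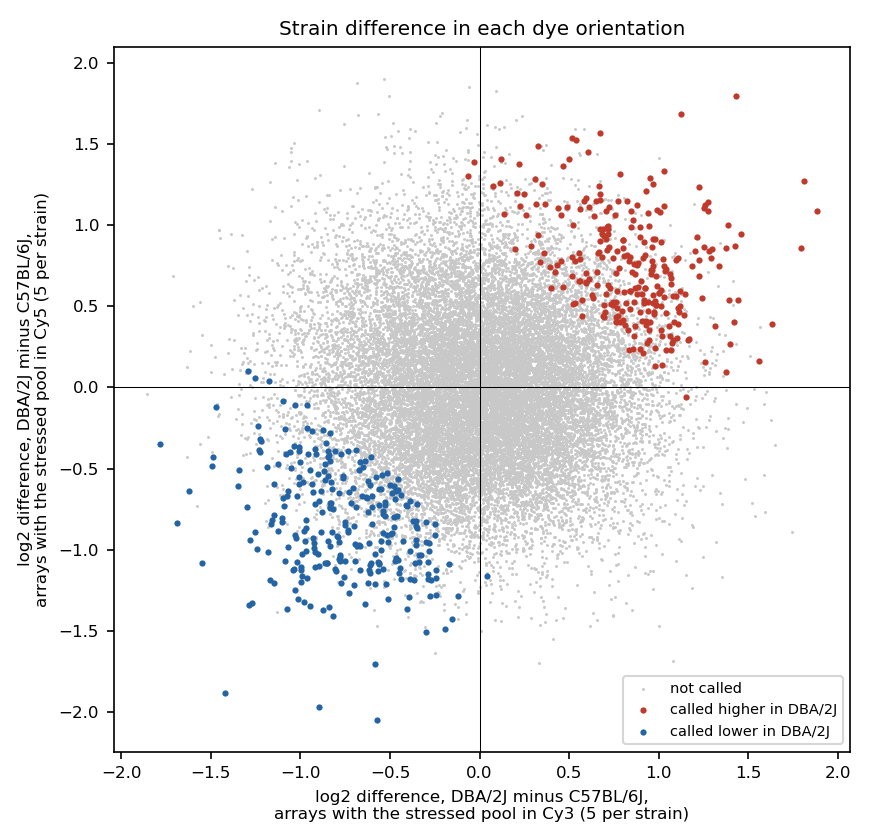
Strain difference of each clone on the arrays with the stressed pool in Cy3 (horizontal axis, log2) and in Cy5 (vertical axis, log2), 5 arrays per strain in each. The grey cloud of clones that were not called shows no slope. Of the 535 called clones, 528 lie where both differences have the same sign, which a call favours by construction.

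Clones were tied to genes by their names, so that 419 called clones stood for 381 genes, 190 higher and 192 lower, with Tnfrsf12a in both. Among clones with a gene symbol 4.5% were called (2.3% higher and 2.2% lower), and among those that were also bright 13.4% (6.44% higher and 6.96% lower). List counts are read against these shares. Of 36 genes with 2 or more called clones, 35 had all of them in one direction. Among the 375 uncalled clones of called genes, 232 had the sign of the call.

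Transcripts of vesicle release held the 2 lowest differences among named genes, and 10 of the 11 called clones on the list were lower in DBA/2J. Vamp2, which encodes the SNARE protein of synaptic vesicles, was the lowest of all clones. Its log2 ratio ran from -2.47 through a median of -1.33 to -0.56 on the 10 DBA/2J arrays, against -0.13 through 0.34 to 0.83 on the 10 C57BL/6J arrays. Every DBA/2J array lay below every C57BL/6J array, and the difference was -1.65 ± 0.17 (SE, 3.14-fold, adjusted p = 3.4e-05). A second Vamp2 clone, which was dim, differed by -0.12 ± 0.40 (adjusted p = 0.94).

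Syp encodes synaptophysin, a membrane protein of the same vesicles. Its ratio ran from -1.66 through -0.89 to 0.16 in DBA/2J and from -0.12 through 0.43 to 2.26 in C57BL/6J. The difference was -1.43 ± 0.27 (SE, adjusted p = 0.0047), and 2 DBA/2J arrays lay inside the C57BL/6J range. The promoter of Syp is printed as that of a vesicle protein with one of the lowest differences (RefSeq, GRCm38.p6, chrX:7638330-7638629, plus strand, 250 bases before to 50 after the start). Capitals mark the motifs searched, here 1 glucocorticoid response half-site (AGAACA) and 2 GC boxes (GGGCGG).
Syp: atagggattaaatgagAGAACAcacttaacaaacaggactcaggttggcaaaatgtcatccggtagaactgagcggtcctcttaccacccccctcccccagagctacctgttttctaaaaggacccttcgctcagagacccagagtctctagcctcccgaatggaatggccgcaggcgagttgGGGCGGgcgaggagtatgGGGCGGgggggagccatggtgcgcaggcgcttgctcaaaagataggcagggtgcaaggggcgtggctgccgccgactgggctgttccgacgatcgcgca

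The other called members of the list were smaller. Syn1, a phosphoprotein on the vesicle surface, differed by -0.90 ± 0.24 (adjusted p = 0.048) and lost its call on leaving out any of 18 of the 20 arrays, and its other clone differed by -0.32 ± 0.32. Rph3a, a Rab3 effector, differed by -0.84, Cplx2, which clamps the SNARE complex, by -0.78, Syt4, a synaptotagmin, by -0.78, and Vamp1 by -0.74. Napa and Napb, the attachment proteins that help to recycle SNAREs, differed by -0.61 and -0.66, and Bsn, an active zone scaffold, by -0.57. Napg, another attachment protein, went the other way with 0.83. The list had 80 clones, of which 10 were called lower and 1 higher, with a median difference of -0.12 against 0.00 over all clones. Of its 31 bright clones 9 were called, and the called clones of Syn1 and Rph3a were dim.

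**Figure D3:**
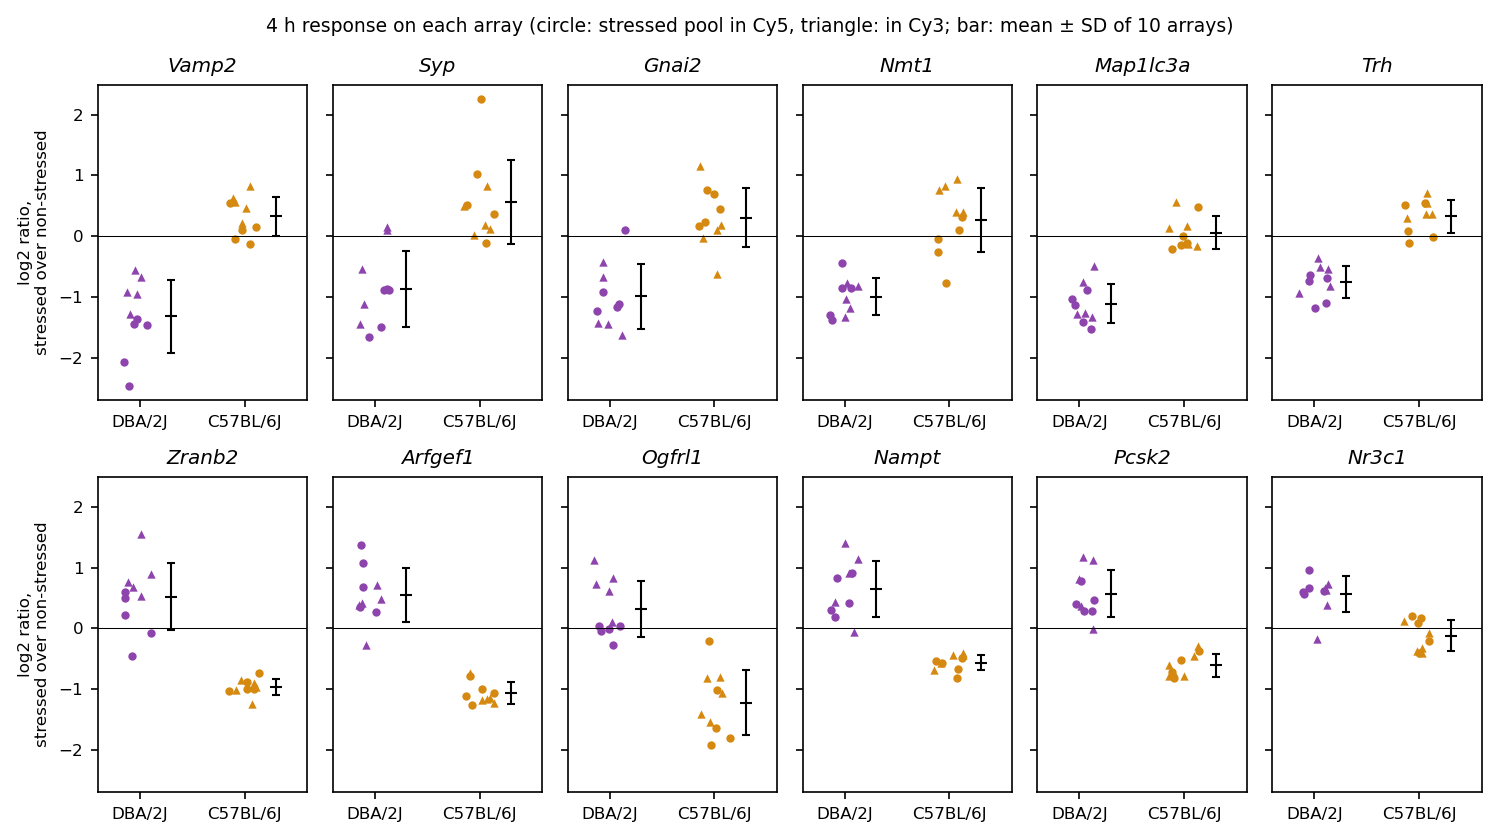
Log2 ratio of stressed over non-stressed on every array for 12 genes (the called clone with the largest difference of each), DBA/2J in purple to the left and C57BL/6J in orange to the right, with mean ± SD of 10 arrays. All DBA/2J points lie below all C57BL/6J points in Vamp2, Map1lc3a and Trh, and above them in Zranb2, Arfgef1, Nampt and Pcsk2, while Syp, Gnai2, Nmt1, Ogfrl1 and Nr3c1 overlap.

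Among peptides of the PVN and hypothalamus 1 of 21 clones was called, that of Trh. Trh encodes the precursor of thyrotropin-releasing hormone, which PVN neurons send to the pituitary. Its log2 ratio ran from -1.18 through -0.72 to -0.36 in DBA/2J and from -0.12 through 0.36 to 0.71 in C57BL/6J. The groups did not overlap, the difference was -1.08 ± 0.15 (SE, 2.11-fold, adjusted p = 0.00032), and it was -1.07 and -1.09 in the 2 dye orientations. The other peptides with a clone did not pass. The list named 31 genes, of which 17 had clones with a symbol. Crh, the precursor of corticotropin-releasing hormone, was not among these and so was not seen. Avp, the vasopressin precursor, differed by -0.45 ± 0.27 (adjusted p = 0.52), and Oxt, the oxytocin precursor, by 0.02 ± 0.32 (adjusted p = 0.99). Both are defining transcripts of this nucleus, and their clones were not bright on the DBA/2J arrays, at a mean log2 intensity of 8.73 for Avp and 7.49 for Oxt. Gal (galanin) had the largest difference of the list, 1.09 ± 0.35 (adjusted p = 0.12), from a dim clone.

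The promoter of Trh is shown because thyrotropin-releasing hormone is the one PVN peptide that was called (GRCm38.p6, chr6:92244601-92244900, minus strand). Capitals mark 1 glucocorticoid half-site and 1 cyclic AMP response element half-site (TGACG), both read on the opposite strand as TGTTCT and CGTCA, and 1 GC box.
Trh: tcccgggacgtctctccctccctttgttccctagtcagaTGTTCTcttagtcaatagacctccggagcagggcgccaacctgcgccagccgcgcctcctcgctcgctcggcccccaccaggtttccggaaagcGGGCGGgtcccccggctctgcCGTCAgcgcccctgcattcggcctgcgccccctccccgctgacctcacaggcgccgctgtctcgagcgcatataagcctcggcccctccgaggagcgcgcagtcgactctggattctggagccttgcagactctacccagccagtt

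Among granule and peptide processing transcripts 4 clones were higher and 1 lower of 29. Pcsk2 encodes prohormone convertase 2, which cuts peptide precursors inside granules. Its ratio ran from -0.02 through 0.43 to 1.17 in DBA/2J, against -0.82 through -0.66 to -0.28 in C57BL/6J. These ranges were apart, and the difference was 1.18 ± 0.16 (SE, 2.27-fold, adjusted p = 0.0004). The other 2 Pcsk2 clones were dim and differed by -0.25 ± 0.21 and -0.11 ± 0.35. Cadps, a priming factor for dense-core granules, ran from -0.47 through 0.34 to 2.20 in DBA/2J and from -1.17 through -0.50 to 0.06 in C57BL/6J, a difference of 1.04 ± 0.21 (adjusted p = 0.0086). Both clones of Atp6ap2, the (pro)renin receptor, were higher, by 0.63 and 0.59. Resp18, a granule protein, was lower by -0.55 ± 0.14 (adjusted p = 0.033).

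The promoter of Pcsk2 is printed as that of the convertase (GRCm38.p6, chr2:143545883-143546182, plus strand). Capitals mark 7 GC boxes, some of them overlapping, 2 CCAAT boxes read on the opposite strand as ATTGG, and 1 cyclic AMP response element half-site read as CGTCA.
Pcsk2: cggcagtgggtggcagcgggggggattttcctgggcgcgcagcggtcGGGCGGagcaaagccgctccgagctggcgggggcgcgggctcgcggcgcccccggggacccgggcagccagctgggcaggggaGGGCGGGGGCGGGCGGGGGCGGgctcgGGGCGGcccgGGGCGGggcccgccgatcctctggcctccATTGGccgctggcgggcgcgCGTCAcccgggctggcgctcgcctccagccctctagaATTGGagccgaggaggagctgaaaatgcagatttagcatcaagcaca

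Of the receptors for stress hormones and peptides, Nr3c1 alone was called among 19 clones. These stood for 13 of 28 listed genes. Crhr1 and Crhr2, the receptors of corticotropin-releasing hormone, had no clone with a symbol and were not seen. Nr3c1 encodes the glucocorticoid receptor. Its ratio ran from -0.17 through 0.62 to 0.97 in DBA/2J and from -0.41 through -0.14 to 0.21 in C57BL/6J, a difference of 0.68 ± 0.15 (SE, 1.61-fold, adjusted p = 0.017). A single DBA/2J array lay inside the C57BL/6J range, and the difference was 0.71 and 0.66 in the 2 orientations. Nr3c2, the mineralocorticoid receptor, differed by 0.81 ± 0.25 and did not pass (adjusted p = 0.10).

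Glucocorticoid target genes had 3 called clones of 40, all lower, and a median difference of -0.02. Of these, 2 were clones of Glul, glutamine synthetase, at -0.70 ± 0.17 (adjusted p = 0.028) and -0.61 ± 0.14 (adjusted p = 0.027). The other 7 Glul clones differed by between -0.47 and 0.08, none called. Plekhf1, an endosomal adaptor, differed by -0.66 ± 0.14 (adjusted p = 0.012). Fkbp5, which encodes a co-chaperone of the glucocorticoid receptor, differed by -0.38 ± 0.21 and did not pass (adjusted p = 0.44). Tsc22d3 and Sgk1, a transcriptional regulator and a kinase induced by glucocorticoids, did not pass either, at 0.27 and 0.18 for the 2 Tsc22d3 clones and -0.22 for Sgk1. Of 33 immediate early gene clones, Ier3 alone was called (0.61 ± 0.15, adjusted p = 0.031, and -0.26 in its other clone), while Fos differed by 0.11 ± 0.21 (adjusted p = 0.88).

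Of 72 clones for G proteins, RGS proteins and adenylate cyclases, 3 were called, 1 higher and 2 lower. This share, 4.17%, was near the 4.5% of all clones with a symbol. Gnai2 encodes an inhibitory G protein subunit that lowers cyclic AMP. It ran from -1.62 through -1.15 to 0.10 in DBA/2J and from -0.63 through 0.21 to 1.15 in C57BL/6J, a difference of -1.30 ± 0.23 (SE, adjusted p = 0.0034), with overlap. Its clone was dim on the DBA/2J arrays (8.90), and a second dim clone differed by -0.47 ± 0.19 (adjusted p = 0.26). The study's real-time PCR of unpooled RNA ran the other way in DBA/2J, with Gnai2 higher after stress, and gave a non-significant increase in C57BL/6J. Gnao1, the main G protein alpha subunit of neurons, was lower by -0.65 ± 0.12 (adjusted p = 0.0043) in 1 of 4 clones, with -0.27, 0.28 and 0.47 in the uncalled others. Gna13, another G protein alpha subunit, was higher by 0.83 ± 0.19 (adjusted p = 0.022) in a clone that was dim on the DBA/2J arrays (7.31), with 0.29 in a bright clone and 0.14 in another, neither called. The median of the whole list was 0.02, and 1 of its 18 bright clones was called.

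In the MAP kinase cascade 3 of 99 clones were called, 3.03% against 4.5% of all clones with a symbol. Of its 27 bright clones 1 was called. Mapk3, the kinase ERK1, was lower by -1.13 ± 0.24 (adjusted p = 0.012), with a range of -1.95 to 0.13 in DBA/2J and -0.72 to 1.07 in C57BL/6J and a dim clone (9.2 on the DBA/2J arrays). Both clones of Map4k3, a kinase upstream of JNK, were higher by 0.68 ± 0.15 (adjusted p = 0.016, a dim clone) and 0.60 ± 0.16 (adjusted p = 0.042). In calcium signalling, 2 of 4 clones of Ppp3cb, a catalytic subunit of calcineurin, were higher by 1.04 ± 0.19 (adjusted p = 0.0034, a dim clone) and 0.66 ± 0.16 (adjusted p = 0.035), with 0.36 and -0.18 in the others. Ppp3ca, the sister subunit, was at 0.50, and Nfat5, a transcription factor that answers to osmotic stress, at 0.94 ± 0.18 (adjusted p = 0.0065) in 1 of 3 clones, with 0.29 and 0.11 in the others.

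Channels that open with voltage, or that pass potassium, had 3 called clones of 92, all lower. This was 3.26%, against 4.5% of all clones with a symbol. Cacna2d1 and Cacnb3, accessory subunits of calcium channels, differed by -0.73 ± 0.13 (adjusted p = 0.0031) and -1.05 ± 0.25 (adjusted p = 0.03). The called Cacnb3 clone was dim on the DBA/2J arrays (8.20), and its other clones stood at -0.40 and 0.17, while the second Cacna2d1 clone stood at -0.55, none called. Kcnc4, a fast potassium channel, differed by -0.54 ± 0.13 (adjusted p = 0.031), with -0.53 and -0.29 in uncalled clones. None of 61 clones of neurotransmitter receptors was called.

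The highest difference of all was that of Arfgef1, which activates ARF proteins at the Golgi and at endosomes. Its first clone ran from -0.27 through 0.45 to 1.38 in DBA/2J, against -1.27 through -1.13 to -0.73 in C57BL/6J, a difference of 1.62 ± 0.17 (SE, 3.06-fold, adjusted p = 3.4e-05). A second clone gave 1.33 ± 0.15 (adjusted p = 5.9e-05), and a dim one 0.11 ± 0.28 (adjusted p = 0.92). In both called clones no C57BL/6J array reached the lowest DBA/2J array.

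Ogfrl1, a relative of the opioid growth factor receptor, ran from -0.27 through 0.08 to 1.13 in DBA/2J and from -1.92 through -1.24 to -0.20 in C57BL/6J, a difference of 1.54 ± 0.20 (adjusted p = 0.00032). Its other bright clone differed by 0.21 ± 0.20 (adjusted p = 0.72). Zranb2, a splicing factor, ran from -0.46 through 0.57 to 1.56 in DBA/2J and from -1.25 through -0.98 to -0.74 in C57BL/6J, a difference of 1.49 ± 0.16 (2.8-fold, adjusted p = 5.9e-05). Gpm6b, a membrane glycoprotein of glia and neurons, was higher by 1.20 ± 0.15 (adjusted p = 0.00025) in 1 of 4 clones, without overlap, while the others stood at 0.39, 0.37 and -0.50.

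Nampt encodes the enzyme that sets the rate of NAD salvage. Its ratio ran from -0.06 through 0.64 to 1.40 in DBA/2J and from -0.82 through -0.56 to -0.40 in C57BL/6J, without overlap. The difference was 1.21 ± 0.17 (SE, 2.32-fold, adjusted p = 0.00054). A second, dim clone differed by 0.53 ± 0.29 (adjusted p = 0.45). The Nampt promoter is printed as that of a higher gene whose strains did not overlap (GRCm38.p6, chr12:32820085-32820384, plus strand), with 5 GC boxes on either strand and 1 cyclic AMP response element half-site in capitals.
Nampt: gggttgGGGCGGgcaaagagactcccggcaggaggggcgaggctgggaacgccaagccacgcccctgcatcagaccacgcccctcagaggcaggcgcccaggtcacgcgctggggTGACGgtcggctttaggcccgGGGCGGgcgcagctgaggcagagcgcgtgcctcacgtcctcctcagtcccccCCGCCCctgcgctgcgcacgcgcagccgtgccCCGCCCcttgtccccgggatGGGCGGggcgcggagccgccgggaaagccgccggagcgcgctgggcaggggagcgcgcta

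Other genes among the highest were Cdh8, a cadherin of synapses (1.23 ± 0.17, adjusted p = 0.00037, from a clone dim on the DBA/2J arrays), Chm, the Rab escort protein (1.19 ± 0.21, adjusted p = 0.0027), and Tmem30a, a subunit of phospholipid flippases, with 1.18 and 0.86 in 2 clones and 0.11 and -0.06 in the others. A second Chm clone differed by -0.02. Oosp1, a secreted protein of the oocyte, gave 1.40 ± 0.28 (adjusted p = 0.0076) from a spot that was dim in both comparisons, and C330018D20Rik 1.18 ± 0.26 (adjusted p = 0.017) from a dim spot as well, with 0.62 and 0.03 in their other clones.

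Among the lowest differences, both called clones of Nmt1, an enzyme that adds a myristoyl group to signalling proteins, lay at -1.26 ± 0.17 (adjusted p = 0.00032) and -1.12 ± 0.17 (adjusted p = 0.00074). Another, dim clone differed by 0.16 ± 0.37 (adjusted p = 0.91). The lowest of them ran from -1.39 through -0.95 to -0.44 in DBA/2J and from -0.77 through 0.35 to 0.94 in C57BL/6J. Map1lc3a, a ubiquitin-like protein of autophagosomes, ran from -1.53 through -1.20 to -0.50 in DBA/2J and from -0.21 through -0.05 to 0.57 in C57BL/6J, a difference of -1.17 ± 0.16 (SE, 2.26-fold, adjusted p = 0.00041) without overlap. This difference lay almost wholly in DBA/2J, with a mean response of -1.12 there and 0.06 in C57BL/6J.

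Nf2, the tumour suppressor merlin, differed by -1.22 ± 0.21 (adjusted p = 0.0024), and its second clone by -0.80 ± 0.22 (adjusted p = 0.056). The remaining genes among the 12 lowest came from spots that were dim in at least 1 comparison. They were Gpt, alanine aminotransferase (-1.31 ± 0.30, adjusted p = 0.022), Ankrd13d, an ankyrin repeat protein (-1.31 ± 0.25, adjusted p = 0.0046), Sox1, a neural transcription factor (-1.15 ± 0.27, adjusted p = 0.022), Eif2ak4, the kinase GCN2 (-1.14 ± 0.30, adjusted p = 0.045), and Il4, interleukin 4 (-1.14 ± 0.25, adjusted p = 0.015). The other clone of Ankrd13d stood at -0.13, and those of Sox1 at 0.24 and -0.21. Eif2ak4 lost its call on leaving out any of 16 arrays.

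RNA splicing factors and ribonucleoproteins had 12 clones higher and 2 lower of 183, with a median of 0.07. Of their 52 bright clones 10 were called, 8 higher. Besides Zranb2, the higher bright clones were Rbm7, a subunit of the nuclear exosome targeting complex (1.03 ± 0.15, adjusted p = 0.00054, and -0.08 in a dim clone), Mbnl1 (0.81), Hnrnpk (0.80), 2 clones of Elavl2 (0.74 and 0.58), Srsf11 (0.70) and a clone of Srsf2 (0.62). The higher dim clones were Rbm12b2 (0.93), Rbm26 (0.87), another clone of Srsf2 (0.82) and Rbm18 (0.75). Snrpn, a small nuclear ribonucleoprotein of neurons, went the other way, with a range of -1.39 to -0.36 in DBA/2J, against -0.22 to 0.29 in C57BL/6J, and a difference of -1.0 ± 0.14 (adjusted p = 0.00049). Celf2 was also lower (-0.56).

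Heat shock proteins and chaperones had 8 clones higher and 2 lower of 130, with a median of 0.09. St13, a co-chaperone of Hsp70, was higher by 0.81 ± 0.15 (adjusted p = 0.0051, and -0.16 in a dim clone), Canx, the calnexin of the endoplasmic reticulum, by 0.78, and Dnajc10, its disulphide reductase, by 0.75 in a dim clone. Hsp90ab1, a constitutive Hsp90, was lower by -0.82 ± 0.16 (adjusted p = 0.0063, and -0.46 in an uncalled clone), and Dnajb3 by -0.82 ± 0.13 (adjusted p = 0.0017).

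Cytosolic ribosomal protein transcripts had 8 clones lower and 1 higher of 111, with a median of -0.16. All 9 called clones were among the 71 bright ones, a share near that of bright clones with a symbol. Rpl14 was lower in both of its clones, by -0.97 ± 0.18 (adjusted p = 0.0036) and -0.87 ± 0.18 (adjusted p = 0.0084), and the first ran from -1.27 to 0.10 in DBA/2J and from 0.25 to 0.85 in C57BL/6J. Rps27 (-0.87, and 0.04 in a dim clone) and Rpl8 (-0.81) followed, and Rpl15 was the one that was higher (0.64). Mitochondrial ribosomal proteins had 2 lower of 86 clones (2.33%, median -0.13). They were Mrpl22 at -1.08 ± 0.26 and Mrps21 at -0.60 ± 0.16, both dim, with -0.44 and -0.37 in their other clones. Oxidative phosphorylation had 5 lower of 112 (4.46%, median -0.07), near the 4.5% of all clones with a symbol. Of its 44 bright clones 4 were called. The largest difference was that of Ndufb8, a complex I subunit (-0.97 ± 0.15, adjusted p = 0.0011). Ndufb8 ran from -1.05 to -0.25 in DBA/2J, against -0.23 to 0.84 in C57BL/6J.

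Cytoskeletal and motor proteins had 8 lower and 2 higher of 182 clones (5.49%). Of their 63 bright clones 9 were called, a share near the 13.4% of bright clones with a symbol. Actb, beta-actin, varied little between arrays (SD 0.14 in DBA/2J and 0.09 in C57BL/6J, n = 10 each). It ran from -1.08 through -0.80 to -0.65 in DBA/2J and from 0.02 through 0.20 to 0.30 in C57BL/6J, a difference of -1.01 ± 0.12 (SE, adjusted p = 0.00014), a second clone differed by -0.67 ± 0.12 (adjusted p = 0.0042), and a dim one by -0.58 ± 0.23 (adjusted p = 0.25). Both clones of Tuba1b, an alpha-tubulin, were lower (-0.79 and -0.64), as was Ina, the neuronal filament alpha-internexin (-0.96 ± 0.19, adjusted p = 0.0056, from a dim clone). Dpysl2, the collapsin response mediator CRMP2, was higher by 0.75 ± 0.13 (adjusted p = 0.0035) in 1 clone without overlap, while its other 2 clones differed by -0.68 (adjusted p = 0.055) and -0.32.

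Autophagy and lysosome transcripts had 6 lower and 1 higher of 85 clones. Besides Map1lc3a, the lower ones were subunits of the vacuolar proton pump, which acidifies lysosomes and secretory granules. Atp6v1f ran from -1.11 through -0.65 to -0.14 in DBA/2J and from -0.02 through 0.51 to 0.72 in C57BL/6J, a difference of -1.11 ± 0.14 (adjusted p = 0.00032) without overlap. Atp6v0a1 differed by -0.91 ± 0.15 (adjusted p = 0.0024), and its dim clone by -0.33.

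In sterol synthesis and its feedback 3 clones were lower and 1 higher of 40. Stard4, which carries cholesterol between membranes, differed by -1.10 ± 0.18 (adjusted p = 0.0023), but its other clones stood at 0.16 and 0.74, neither called. Srebf2, the transcription factor that switches on cholesterol synthesis, was lower by -0.79 ± 0.19 (adjusted p = 0.027), and Hmgcs1, a target of it, was higher by 0.66 ± 0.15 (adjusted p = 0.018), with 0.26 in its other clone.

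Membrane traffic by Rab and Arf proteins had 6 clones higher and 3 lower, 3.40% of the list. Beside Arfgef1, both clones of Sec23a, a coat protein of vesicles that leave the endoplasmic reticulum, were higher (0.79 in a dim clone and 0.74), and Vps28, a subunit of the endosomal sorting complex, was lower (-0.82 ± 0.15, adjusted p = 0.0043) without overlap. The list for the proteasome and ubiquitin system had 5 higher and 6 lower of 287 clones (3.83%). All were among its 86 bright clones, a share near the 13.4% of bright clones with a symbol. The lower ones include Psmc3ip (-0.77), which entered by its symbol and is not a proteasome subunit. Both clones of Ubl3, a membrane-anchored ubiquitin-like protein, were higher (1.04 ± 0.16, adjusted p = 0.00085, and 1.03 ± 0.23, adjusted p = 0.017), and Ube2h, a ubiquitin-conjugating enzyme, was lower (-0.94 ± 0.19, adjusted p = 0.0073), with -0.21 in a dim clone.

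**Figure D4:**
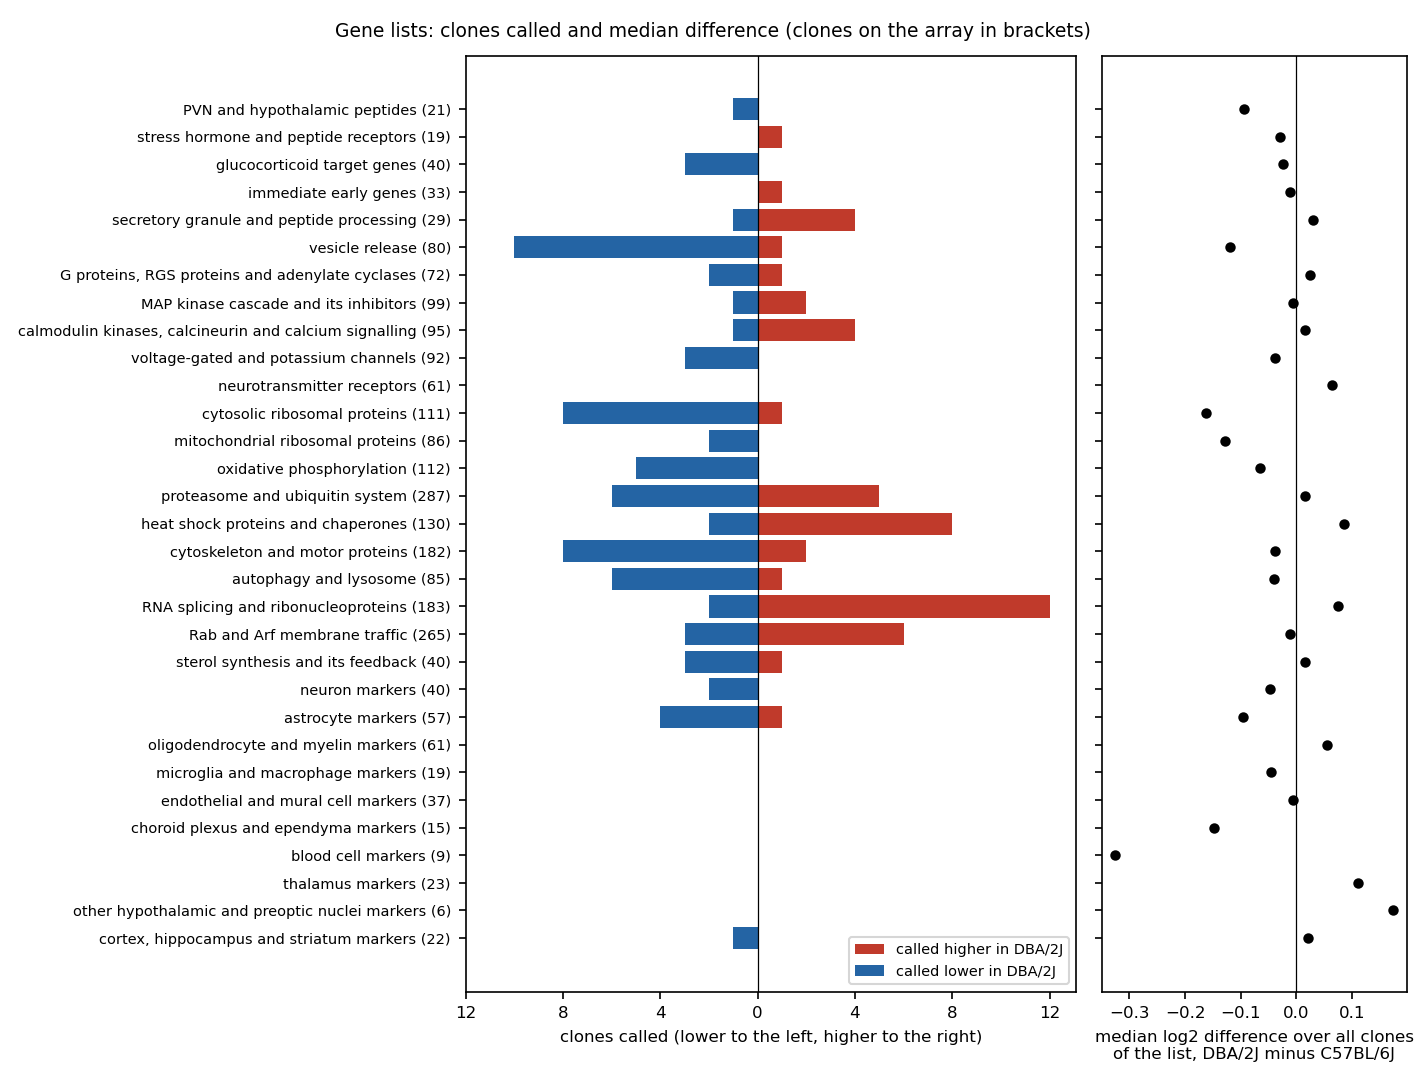
Left, the number of clones of each gene list called higher in DBA/2J (red, to the right) and lower (blue, to the left); right, the median log2 difference, DBA/2J minus C57BL/6J, over all clones of the list. Vesicle release has 10 lower clones, RNA splicing 12 higher, and the medians lie between -0.33 (blood cell markers, 9 clones) and 0.17 (other hypothalamic nuclei, 6 clones).

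Counts for markers of cell types and regions are read against the 4.5% called among all clones with a symbol. None of the clones for oligodendrocytes (61), microglia (19), endothelial and mural cells (37), choroid plexus and ependyma (15), blood (9), thalamus (23) or other hypothalamic nuclei (6) passed. Bright clones among these numbered 18 for oligodendrocytes, 5 for endothelial and mural cells, 4 for thalamus, 3 each for microglia and blood, 1 for choroid plexus and 0 for other hypothalamic nuclei, too few for a count of 0 to show that these markers did not differ. Of 40 neuron clones 2 were lower, Thy1 (-0.89 ± 0.16, adjusted p = 0.0039) and the neuronal enolase Eno2 (-0.70 ± 0.18, adjusted p = 0.038), with a median of -0.05. The second Thy1 clone stood at -0.77, and the other 4 of Eno2 at -0.63, -0.38, -0.36 and 0.39, none called. Of 57 astrocyte clones 4 were lower and 1 higher, with a median of -0.10, and 8.77% of the list was called. These were the 2 called Glul clones, Aldoc, the brain aldolase (-0.83 ± 0.14, adjusted p = 0.0023), Plpp3, a lipid phosphatase (-0.89 ± 0.22, adjusted p = 0.034), and Gpm6b on the higher side. Uncalled clones of Aldoc stood at -0.52, -0.40 and 0.15, and a bright uncalled clone of Plpp3 at 0.30. Gfap, the filament protein of astrocytes, differed by -0.61 ± 0.31 and 0.19 ± 0.18 in its 2 clones (adjusted p = 0.41 and 0.72). Of 22 clones for cortex, hippocampus and striatum, Wfs1 alone was lower (-0.52 ± 0.12, adjusted p = 0.022). Their part in the other differences was not tested.

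Of 31 genes that the study lists as regulated at 4 h in either strain, 27 were found on the array through the names used here. Of these, 17 were called for the strain difference, 10 higher and 7 lower. The study chose them on these same arrays, so that the count is no independent evidence. Those not yet given include Pold1, the catalytic subunit of a DNA polymerase, which was higher by 0.85 ± 0.17 (adjusted p = 0.0077), and Ubqln2, a shuttle for ubiquitylated proteins, by 0.62 ± 0.15 (adjusted p = 0.032) in 1 of 4 clones, with 0.45, 0.37 and 0.14 in the others. Hhex, a homeobox factor, differed by 0.96 ± 0.27 (adjusted p = 0.064), Slc6a15, an amino acid transporter of neurons, by 0.57 and 0.17, none called. Pomc, a precursor that the study examined beside them, differed by -0.16 ± 0.32 (adjusted p = 0.89).

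Genes called higher and lower differed in a property that the rule did not use, the length of the gene. The median span from start to end was 31.1 kb for the 189 higher genes with coordinates and 13 kb for the 191 lower ones, against 22.2 kb for all 6230 genes with a symbol on the array. In promoters (RefSeq, GRCm38.p6, 300 bases, both strands) the median GC content was 63% for higher genes, 59% for lower genes and 61% for all. A cyclic AMP response element half-site (TGACG, which lies inside the full element TGACGTCA) was held by 40.6% of 155 higher genes and 26.2% of 149 lower ones, against 33.2% of 5026 genes on the array and 21% of all 27025 promoters. The full element was in 4.52%, 4.03% and 3.68% of these 3 gene sets. A glucocorticoid half-site (AGAACA) was in 10.3% of higher genes, 14.1% of lower genes and 12.1% of all, and a GC box (GGGCGG) in 71.6%, 63.8% and 64.3%. CCAAT was found in 36.8%, 38.9% and 37.7%, and TATAAA in 5.81%, 4.70% and 6.86%. These shares are descriptions, and none was tested.

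The other comparisons of the series are given beside the 4 h values as description only, because they share the non-stressed pools. For Vamp2 the ratio at 8 h was -0.20 ± 0.12 in DBA/2J and -0.31 ± 0.18 in C57BL/6J (SE, 10 arrays each), and for Trh 0.06 ± 0.16 and 0.02 ± 0.14. For Zranb2 the ratios at 8 h were 0.17 ± 0.09 in DBA/2J and 0.15 ± 0.11 in C57BL/6J, and for Pcsk2 -0.11 ± 0.11 and 0.10 ± 0.11. None of these 8 h ratios was farther from 0 than the -0.31 of Vamp2 in C57BL/6J. Stard4 and Actb stood apart at 8 h, Stard4 with 0.46 ± 0.10 in DBA/2J and -0.59 ± 0.12 in C57BL/6J, and Actb with -0.38 ± 0.08 and 0.48 ± 0.11. In non-stressed mice the log2 ratio of DBA/2J over C57BL/6J was -0.89 ± 0.15 and -1.23 ± 0.13 for the 2 called Arfgef1 clones, 0.87 ± 0.18 for Pcsk2, -1.13 ± 0.15 for Nf2 and 0.97 ± 0.15 for Actb, while it was 0.11 ± 0.15 for Vamp2 and 0.10 ± 0.17 for Zranb2. A strain ratio of the non-stressed pools enters the difference with the opposite sign, and what it contributed was not tested.

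**Figure D5:**
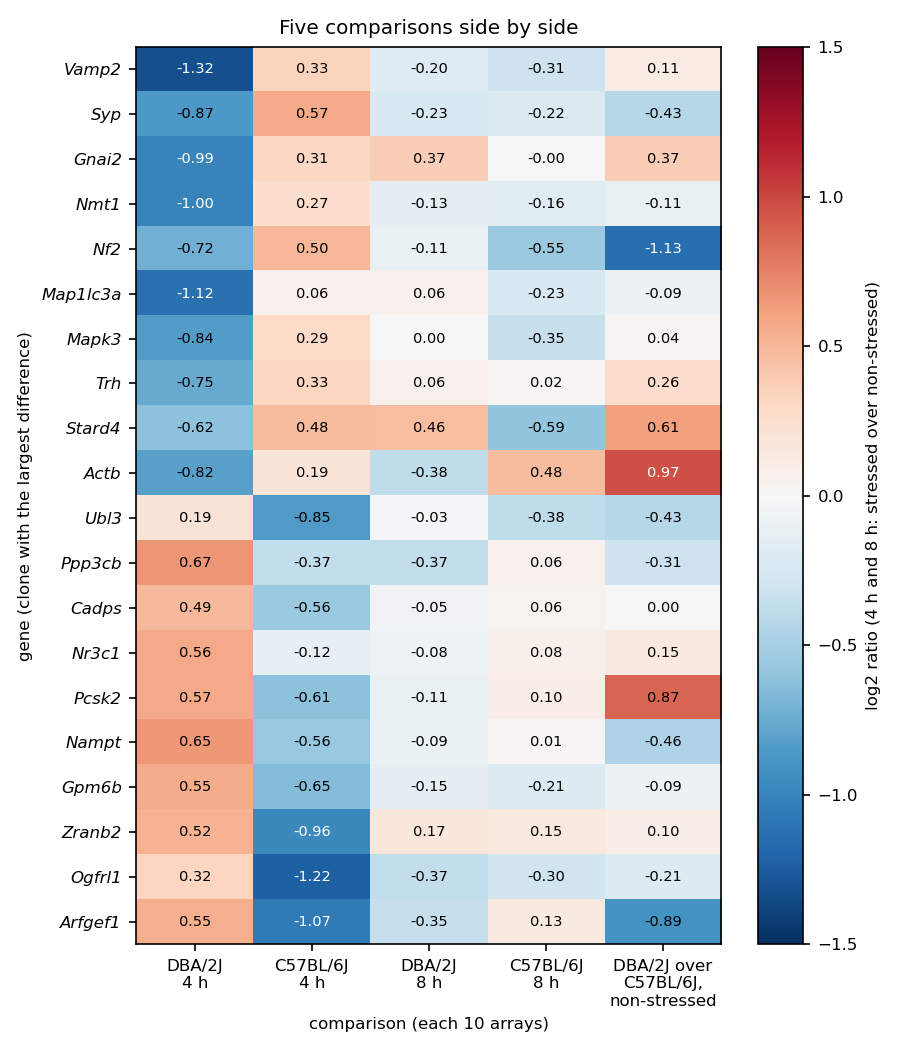
Mean log2 ratio of 10 arrays in each of 5 comparisons for 20 genes, 1 clone each; the first 4 columns are stressed over non-stressed and the last is DBA/2J over C57BL/6J in non-stressed mice. The 4 h values of the 2 strains have opposite signs in every row, with the C57BL/6J value of Map1lc3a at 0.06, and the 8 h columns are paler for most genes.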

How the data were processed

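RNA of PVN micropunches was amplified in 2 rounds, labelled with Cy3 and Cy5 and hybridised to spotted cDNA arrays of 24192 spots. The deposited spot files hold each channel's intensity and local background on a linear scale, which the authors quantified by fixed circles and did not normalize. A table of log2 ratios normalized by the authors by a procedure described elsewhere was used as an alternative only; it runs in the direction of the labelled dyes.

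Arrays were grouped by their labels. Intensities were corrected by normexp (offset 50), ratios normalized by global loess within each array, with control spots at weight 0, and turned to stressed over non-stressed. The 20 arrays were fitted with lmFit and eBayes (limma 3.58.1, R 4.3.3) with a response and a dye term for each comparison, and the strain difference was the contrast of the 2 responses, adjusted by Benjamini-Hochberg over 22824 clones (1368 control spots left out). The fit was tested on simulated data. Precision is set by the number of arrays, and a difference had a standard error of 0.26 in the median clone.

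No annotation of the array was used here. Gene symbols came from the clone and accession names in the files (6944 clones), gene family names (665), a table of full names (1405) and the study's own gene list (294), and 13516 clones had none. By rule, the text names the 12 clones with a symbol of highest and the 12 of lowest called difference whose sign was shared by both orientations, up to 3 called members of each of 31 gene lists, and 40 genes that the study lists for 4 h or discusses beside them. Further members of a list are given by their difference alone, and examples that did not pass were chosen after their values were seen. Lists share some members, and 1 called list member is not reported here. Members, lists and tests were chosen with earlier results of these data known. Promoters came from RefSeq (GRCm38.p6). Summaries and figures used Python 3.11.15, pandas 2.3.3, numpy 2.4.6 and matplotlib 3.10.9. Alternatives were other normalizations, filters, tests, dye subsets, blocks and the omission of each array.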

Additional observations from a re-analysis of the deposited data

Results flagged for a closer look

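The strain difference of the 4 h response passed the test in 535 clones, which is the difference between groups that the report describes. Of the 1170 empty spots, which should carry no signal of their own, 2 also passed.

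Among the named clones, 372 sets of 10 arrays of one comparison were searched for a single array that stood far from the other 9, and 23 were found, where chance alone marks about 1 in 20 sets. All values are log2 ratios of stressed over non-stressed on the array that stood apart. On DBA/2J arrays these were Nr3c1 at -0.17, Thy1 at 0.0095, and in uncalled clones Glul at -2.32, Mrps21 at -1.59, Nfatc1 at -1.52 and Ppp3cb at 0.79 and -1.47.

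On C57BL/6J arrays the called clones with such an array were C330018D20Rik at -1.88, Cacnb3 at -0.49, Gpt at -0.94, Hmgcs1 at -0.71, Nf2 at 1.14, Nmt1 at -0.88, Syp at 2.26 and Tmem30a at -2.79. In uncalled clones they were Aldoc at -0.85, Fkbp5 at 1.65, Glul at 3.32, Gnao1 at 0.45, Gpm6b at 1.88, Mrps21 at 1.07, Nfatc1 at 1.33 and Slc6a15 at 1.02. No called clone named in these 2 paragraphs lost its call when the array that stood apart was left out.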

How the results depend on the processing

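Against the 535 clones called in the report, 482 to 678 were called under other settings of background, normalization, dim filter, scan day or fit. These were raw spot signals without subtraction, loess within print tips, centring on the median, equal scales and bright clones only. The others were the authors' processed values, scan day as a random block and all 50 arrays in 1 fit. With bright clones only, all 392 of the 535 that were tested were called again. In the other settings 456 (authors' processed values, 517 tested) to 534 (scan day) of the 535 were called again. The methods' t-test after adjustment called 493, of which 432 were among the 535. With median centring 223 of 574 called clones were higher (38.9%), against 264 of 535 (49.3%) in the report. Outside 1.5 times were 274 clones with no dye term, 1907 with the methods' t-test without adjustment and 3083 with the fold alone. With only the arrays that carried the stressed pool in Cy5 the limma count was 0 (2920 at an unadjusted p under 0.05), with only those in Cy3 it was 9, and after averaging the arrays within an orientation it was 0 (1046 unadjusted). These 3 fits used fewer arrays or fewer degrees of freedom. The replicate number as a block left 127 clones, but the numbers do not pair the samples: deviations of same-numbered arrays correlated between 0.00 and 0.02, and 2 of 10 correlated best with their own number.

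The 535 called clones kept their sign in all settings where they were tested except 4 clones with Cy5 alone and 3 with Cy3 alone. Leaving out each of the 20 arrays gave 389 to 490 clones, and 315 of the 535 stayed called in all 20. Of 86 named clones that were called, 21 lost the call on leaving out at least 1 array, with adjusted p up to 0.094 and the same sign. They included clones of Atp5g2, Atp6ap2, Cacnb3, Eif2ak4, Eno2, Glul, Ier3, Kcnc4, Map4k3, Mrpl22, Mrps21, Ndufv3, Plpp3, Ppp3cb, Sec23a, Srebf2, Syn1 and Ubqln2. With a median standard error of 0.26 and weaker signal on the DBA/2J arrays, a clone that was not called may still differ.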

Other observations

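Groups of genes picked after their values were seen, and therefore given without a test, add to the lists of the report. Glycolytic enzymes had 18 clones, of which 7 were called and all were lower in DBA/2J, with a median difference of -0.49. They were Gapdh (-0.96 ± 0.13, adjusted p = 0.00032), Eno1 (-0.85 ± 0.19), Gpi1 (-0.83 ± 0.18), Aldoc (-0.83 ± 0.14), Eno2 (-0.70 ± 0.18), Pfkm (-0.69 ± 0.17) and Tpi1 (-0.55 ± 0.14), enzymes that turn glucose towards pyruvate. All 7 called clones were among the 13 bright ones. Of all clones with a symbol 4.5% were called, and of those that were also bright 13.4%. The group listed 17 genes, of which 7 had clones with a symbol, so the other listed genes were not seen. Gapdh had 2 further clones, at -0.45 ± 0.25 and 0.27 ± 0.26, and neither was called.

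The subunits listed for the vacuolar proton pump had 5 lower clones of 27 and a median of -0.18, namely Atp6v1f (-1.11), Atp6v0a1 (-0.91), Atp6v0e2 (-0.86, dim), Atp6v1g2 (-0.82) and Atp6v0c (-0.63). Atp6ap2, higher in both of its clones (0.63 and 0.59), was not on this list. The chaperonin CCT, which folds actin and tubulin, had 4 higher clones of 12 and a median of 0.20, from Cct6a (0.75 in a dim clone and 0.64), Cct4 (0.56) and Cct8 (0.56). The calls made up 18.5% of the pump clones and 33.3% of the CCT clones, against 4.5% of all clones with a symbol. Of their bright clones 4 of 9 and 3 of 6 were called, against 13.4% of bright clones with a symbol. In the same comparison Actb and Tuba1b, which encode an actin and a tubulin, were lower in DBA/2J, as given in the report. A link between these and the chaperonin was not tested.

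Tnfrsf12a, a receptor of the TNF family, was the one gene with called clones in both directions, at -1.07 ± 0.27 (adjusted p = 0.034) and 0.87 ± 0.18 (adjusted p = 0.012). Rnasek, a small protein that associates with the vacuolar proton pump, was lower in 3 clones (-1.0, -0.84 and -0.78), and Vbp1, a prefoldin subunit, was higher in 3 (0.78, 0.75 and 0.65). H3f3a, which encodes histone H3.3, was higher in 2 clones (1.06 ± 0.16 and 0.94 ± 0.14, adjusted p = 0.001 for both).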
